A study of Arabidopsis thaliana with 6 samples.

Results

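Mitochondrial genes on the ATH1 array were taken as the probe sets numbered 244901 to 244931, whatever their suffix, with no filter on signal. There were 31 of them among 22746 probe sets, Affymetrix controls not counted. A probe set is a group of short oligonucleotides on the array that together report 1 transcript or a few similar ones. The measurements came from 6 arrays, 3 for *bp er fil-10* and 3 for *bp er*. The *bp er fil-10* line carries *fil-10*, a weak allele of the YABBY gene *FILAMENTOUS FLOWER* recovered after chemical mutagenesis of *bp er*, together with the *bp* (*BREVIPEDICELLUS*) and *er* (*ERECTA*) mutations. The *bp er* line is its parent and carries the same *bp* and *er* mutations, so both genotypes lack normal *BP* and *ER* function and no wild type was analysed here. Both were in the Landsberg background, and the suppressor was 1 line that had been backcrossed to *bp er*, so other mutations linked to *fil-10* cannot be told apart from it. RNA came from whole inflorescences of 5-week-old plants, with floral stages 1 to 13, grown at 22 °C with 16 h of light and 8 h of dark, and the labels call the 3 samples of each genotype biological replicates. Each array gave a MAS signal per probe set, a hybridization intensity on a linear scale, after scaling to a common target of 500. Whole inflorescences were used, so fewer cells of a type, fewer mitochondria per cell and less RNA per mitochondrion cannot be told apart. The inflorescence label could not be checked against the 8 floral organ identity genes listed for it, because none had a named probe set here, and *FIL* and *BP* were likewise unnamed.

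The mitochondrial genome of a plant keeps a small set of genes from the bacterial ancestor of the organelle. They encode subunits of the respiratory chain and ATP synthase, proteins that attach haem to cytochrome c, some ribosomal proteins, a maturase that helps to splice introns, and a protein translocase. Most partners of these proteins are encoded in the nucleus and imported. Plant mitochondrial transcripts mostly lack a stable poly(A) tail, and a tail usually marks them for degradation. The cDNA for these arrays was primed with oligo dT, so the signals describe transcripts that such a primer could reach. *Arabidopsis* chromosome 2 also holds a long copy of mitochondrial DNA next to its centromere, and probe sets can match both.

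The annotation named 10 of the 31 probe sets and left 21 unnamed. Of the 10, 7 were assigned to genes of the mitochondrial genome. They were 3 subunits of NADH dehydrogenase, the first complex of the respiratory chain (*nad4L*, *nad7* and *nad4*), 2 pieces of the split haem lyase subunit of cytochrome c maturation (*ccmFN1*, listed as *ccb382*, and *ccmFN2*, listed as *ccb203*), the maturase gene *matR*, and the translocase gene *mttB*, listed as *orfX*. The other 3 were assigned to chromosome 2. They were AT2G07751, a nuclear copy of the NADH dehydrogenase gene *nad3*, and AT2G07674 and AT2G07776, whose products are not described here. These 3 are the members for which a nuclear copy on chromosome 2 is stated. For the other 28 the annotation used here does not say whether such a copy is matched.

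The suffix of a probe set gives a second view of sharing, since _s_at marks oligonucleotides that match several transcripts. It was carried by 8 of the 31 members, namely 2 of the 3 chromosome 2 loci (AT2G07751 and AT2G07674), 2 of the 7 mitochondrial genes (*matR* and *mttB*), and 4 unnamed probe sets (244910, 244915, 244921 and 244923). Signal from these 8 cannot be assigned to a single transcript. The remaining 23 carried the plain suffix, among them AT2G07776.

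The numbers of the probe sets followed the gene order of the genome. Among the 33 protein genes that the TAIR10.1 gene table lists for the mitochondrial genome, *nad4* (244929) ranked 17th and *mttB* (244928) 18th. The *matR* (244926) and *nad7* (244925) genes ranked 20th and 22nd. The *ccmFN2* (244919), *ccmFN1* (244912) and *nad4L* (244902) genes ranked 28th, 30th and 32nd. The ranks fall without exception as the probe set numbers rise. The 3 chromosome 2 loci lie among these numbers, at 244920, 244922 and 244927. AT2G07674 and AT2G07751 are neighbours on chromosome 2 in the same table. The block therefore covers part of the mitochondrial genome, and the other named mitochondrial genes on the array lie outside it.

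Signal was low for most members. The minimum used for testing, a signal of 100 or more on 3 or more arrays, was met by 7 of 31 probe sets (22.6%), against 63.6% of all 22746. Of these 7, 6 reached 100 on every array, and 20 members did not reach it on any. The 4 members between (244901, 244915, 244916 and 244924) reached 100 on 1 array each, and that array was in every case a *bp er* array. Over all 8290 probe sets below the minimum, 167, 377 and 275 reached 100 on the *bp er fil-10* arrays. On the *bp er* arrays 362, 451 and 339 did. The mean signal over 6 arrays ran between 154 and 1953 for the 7 members that met the minimum and between 2.42 and 79.8 for the other 24, and 5 members stayed under 32 on every array. Signals of different probe sets also reflect how well their oligonucleotides hybridize, so they do not rank the transcripts.

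**Figure D1:**
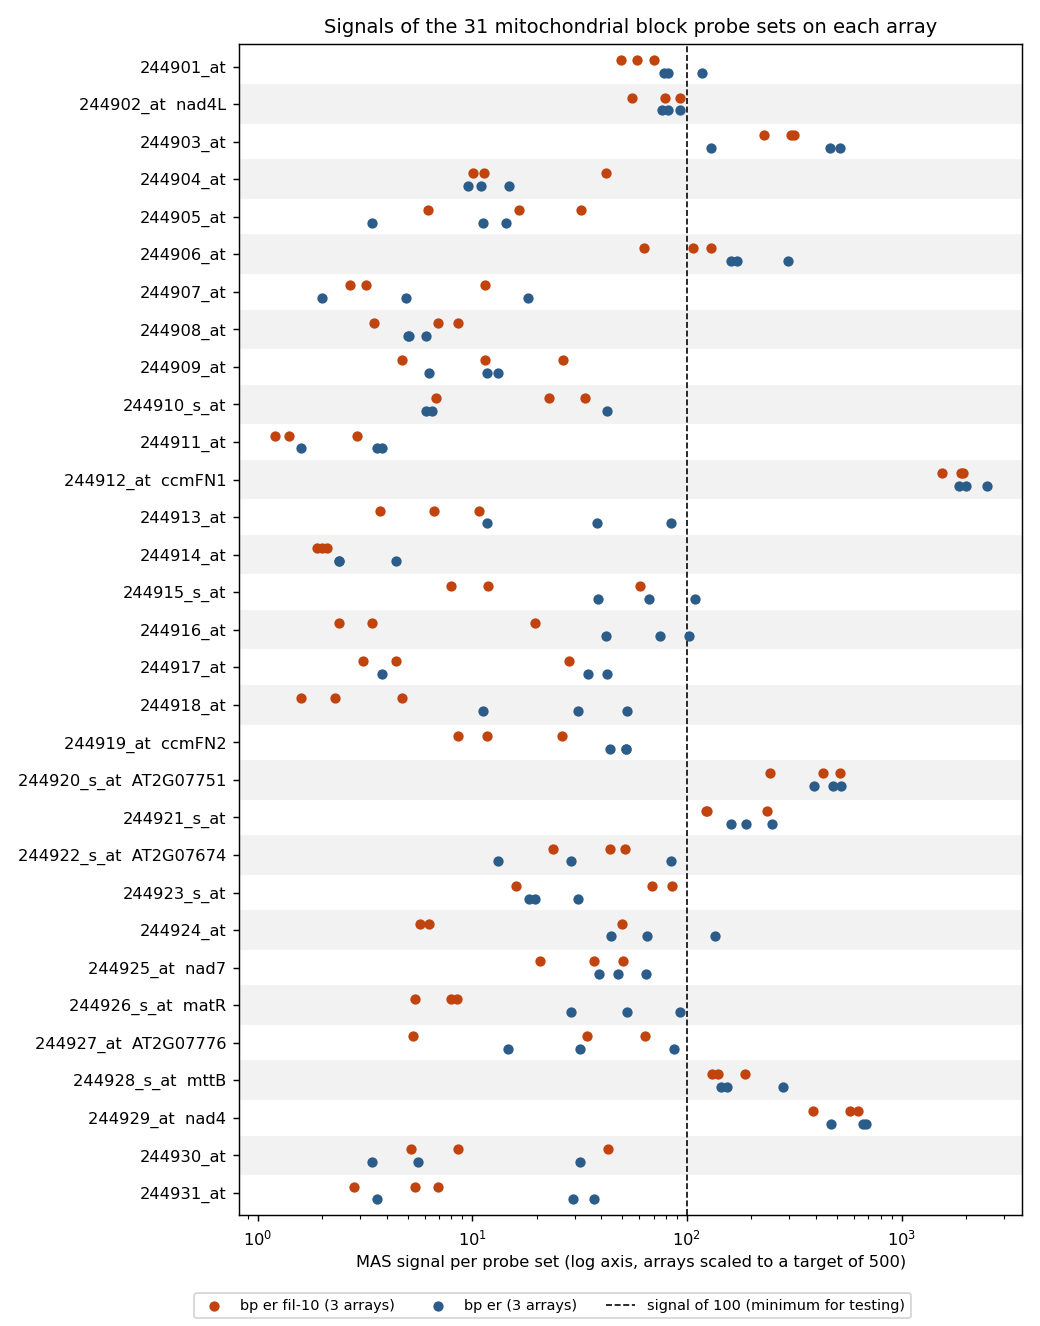
MAS signal (log axis) of each of the 31 probe sets on the 3 *bp er fil-10* arrays and the 3 *bp er* arrays, 1 point per array, in probe set order with the gene symbol where one is known. Only 7 probe sets lie mostly to the right of the dashed line at a signal of 100. In 8 (25.8%) every *bp er fil-10* point is left of every *bp er* point, against 9.12% of all 22746 probe sets. Of these 8, 7 are below the signal minimum.

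The question put to these probe sets was whether the *fil-10* mutation changed their level in the *bp er* background. None of the 7 members that met the minimum was called lower and none was called higher by limma at an adjusted p under 0.05 (0 of 7 in each direction). Over the 14456 probe sets tested in that fit, 0.00692% were called lower and 0% higher. At an unadjusted p under 0.05, 1 of the 7 was lower and 0 were higher, against 7.06% of all probe sets tested lower and 9.78% higher. All 7 had a negative log2 difference, *bp er fil-10* minus *bp er*, with a median of −0.28, beside a median of 0.06 and 43.6% negative over all probe sets tested. With 1 array left out, 6 or 7 of the 7 stayed negative, and the median was −0.18 without *bp er* replicate 1. The count at an unadjusted p under 0.05 was 0 without *bp er fil-10* replicate 1 or without *bp er* replicate 2, and 2 without *bp er* replicate 3. The shares over all probe sets tested that were lower in those 3 fits were 4.75%, 6.41% and 6.41%. With the replicate number as a block, 0 of 7 were called in either direction, while 2.13% of all probe sets tested were called lower and 1.6% higher.

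The cytochrome c maturation gene *ccmFN1* (244912_at) encodes part of the enzyme that joins haem to apocytochrome c. Its signal was 1886, 1943 and 1540 in *bp er fil-10*, against 2498, 1845 and 2005 on the *bp er* arrays. The groups overlapped, since the lowest *bp er* array was below *bp er fil-10* replicates 1 and 2. The log2 difference was −0.24 (SE 0.17, limma adjusted p = 0.504), with a 95% interval between −0.62 and 0.15.

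Among the NADH dehydrogenase genes, *nad4* (244929_at) encodes a membrane subunit of the proton-pumping arm. It had signals of 576, 388 and 626 in *bp er fil-10*, against 687, 660 and 470 in *bp er*. The lowest array of each genotype stood apart from its other two, and the groups overlapped. The difference of −0.20 (SE 0.23, limma adjusted p = 0.691) had a 95% interval between −0.73 and 0.33, and it was 0.0079 without *bp er fil-10* replicate 2.

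AT2G07751 (244920_s_at), the chromosome 2 copy of *nad3*, encodes a relative of another membrane subunit of the same complex. Its signal was 243, 431 and 515 in *bp er fil-10*, against 525, 391 and 477 in *bp er*. *bp er fil-10* replicate 1 was low and the other 5 arrays lay within one range. The difference was −0.29 (SE 0.28, limma adjusted p = 0.636, 95% interval between −0.92 and 0.35), and without that array it was 0.033. The probe set also matches other transcripts by its suffix, so the nuclear locus and the mitochondrial *nad3* transcript cannot be told apart.

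The translocase gene *mttB* (244928_s_at), related to the TatC component of bacterial Tat export, had signals of 131, 186 and 140 in *bp er fil-10*, against 144, 154 and 280 in *bp er*. Only *bp er* replicate 3 stood above the rest. The difference was −0.28 (SE 0.32, limma adjusted p = 0.681, 95% interval between −1.02 and 0.45), and it was 0.020 without *bp er* replicate 3.

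Of the 3 unnamed members that met the minimum, 244906_at gave the only unadjusted p under 0.05. Its signal was 63.4, 129 and 107 in *bp er fil-10*, against 161, 295 and 171 in *bp er*. Every *bp er fil-10* array was below every *bp er* array. The mean was 99.7 ± 33.3 in *bp er fil-10* and 209 ± 74.4 in *bp er* (SD, n = 3 each), and the log2 difference was −1.07 (SE 0.38, limma unadjusted p = 0.0211, adjusted p = 0.224). Its 95% interval ran between −1.94 and −0.21. The adjusted p was 0.103 with the replicate block, and the difference was −0.85 when signals under 100 were raised to 100. The limma adjusted p with signals so raised was 0.187, so the call was not made under either fit.

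The other 2 unnamed members, 244903_at and 244921_s_at, overlapped between genotypes. The first had signals of 307, 230 and 317 in *bp er fil-10*, against 465, 517 and 130 in *bp er*, so that its lowest and its highest arrays were both *bp er*. Its difference was −0.16 (SE 0.48, limma adjusted p = 0.888), but −0.80 without *bp er* replicate 3 and 0.20 without *bp er* replicate 2. The second had 125, 123 and 237 in *bp er fil-10*, against 250, 161 and 188 in *bp er*. Its difference was −0.35 (SE 0.33, limma adjusted p = 0.615).

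The 24 members below the minimum were compared in a fit of all 22746 probe sets with no filter. No member was called in that fit (0 of 31 lower and 0 of 31 higher), where 0.0044% of all probe sets were called lower and 0% higher. At an unadjusted p under 0.05, 7 of 31 were lower and 0 higher, against 5.99% of all probe sets lower and 7.21% higher. Those 7 were 244906_at and 6 members below the minimum, whose values are given here because they passed that threshold, a choice made after their values were seen. The count of 7 was 3 without *bp er fil-10* replicate 1, and between 5 and 7 when any other array was left out. The shares over all probe sets that were lower were 3.90% without *bp er fil-10* replicate 1 and between 4.36% and 7.37% otherwise. Without *bp er fil-10* replicate 1, 1 member was higher at that threshold, the unnamed 244923_s_at, at 1.78 (limma unadjusted p = 0.0441, adjusted p = 0.572). That is 3.23% of the members, against 4.62% of all probe sets higher in the same fit.

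The maturase gene *matR* (244926_s_at) lies within an intron of *nad1* and encodes a protein for splicing group II introns. Its signal was 8.0, 8.5 and 5.4 in *bp er fil-10*, against 28.9, 92.5 and 52.6 in *bp er*. The groups did not overlap, and no array reached 100. The log2 difference without a filter was −2.86 (SE 0.75, limma unadjusted p = 0.00424, adjusted p = 0.197). The other cytochrome c maturation member, *ccmFN2* (244919_at), had signals of 8.6, 26.2 and 11.7 in *bp er fil-10*, against 52.3, 51.8 and 43.6 in *bp er*. Its difference was −1.83 (SE 0.71, limma unadjusted p = 0.0302, adjusted p = 0.323), again with no overlap. Its partner *ccmFN1*, with a signal far above the minimum on all 6 arrays, had a difference of −0.24.

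The remaining 4 were unnamed. Probe set 244916_at had signals of 3.4, 19.6 and 2.4 in *bp er fil-10*, against 102.5, 41.8 and 75.3 in *bp er*, a difference of −3.66 (SE 0.95, limma adjusted p = 0.193). Probe set 244918_at had 1.6, 4.7 and 2.3 in *bp er fil-10*, against 11.2, 31 and 52.6 in *bp er*, a difference of −3.35 (SE 0.86, limma adjusted p = 0.189). In both, every *bp er fil-10* array was below every *bp er* array. Probe set 244913_at had 6.6, 10.7 and 3.7 in *bp er fil-10*, against 38.0, 11.7 and 84.5 in *bp er*, a difference of −2.39 (SE 0.93, limma adjusted p = 0.323) in which the nearest arrays of the genotypes almost met. Probe set 244924_at had 6.3, 50 and 5.7 in *bp er fil-10*, against 65.3, 44.4 and 135.9 in *bp er*, a difference of −2.59 (SE 0.97, limma adjusted p = 0.313) with overlapping groups.

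These log2 differences rest on signals mostly under 100. When every signal under 100 was raised to 100, the differences of the 24 members lay between −0.15 and 0. The 20 members that reached 100 on no array could only give 0 there, so this setting does not test them. Raised to 32, those of the same 24 lay between −1.10 and 0.84, and *matR* stood at −0.75 and *ccmFN2* at −0.62.

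The NADH dehydrogenase genes *nad4L* and *nad7* were also below the minimum. The small membrane subunit gene *nad4L* (244902_at) had signals of 55.7, 79.3 and 92.4 in *bp er fil-10*, against 92.4, 82.1 and 76.7 in *bp er*, a difference of −0.17 (SE 0.44, limma adjusted p = 0.902). The gene *nad7* (244925_at), for a subunit of the matrix arm, had 20.7, 50.2 and 37.0 in *bp er fil-10*, against 47.8, 38.9 and 64.7 in *bp er*, a difference of −0.55 (SE 0.63, limma adjusted p = 0.750). The genotypes overlapped for both. The chromosome 2 loci AT2G07674 (244922_s_at) and AT2G07776 (244927_at) had differences of 0.25 (SE 0.82) and −0.60 (SE 1.07), and the genotypes overlapped for both. The other 14 unnamed members below the minimum differed by between −1.87 and 1.02, and the smallest limma adjusted p among them was 0.411.

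**Figure D2:**
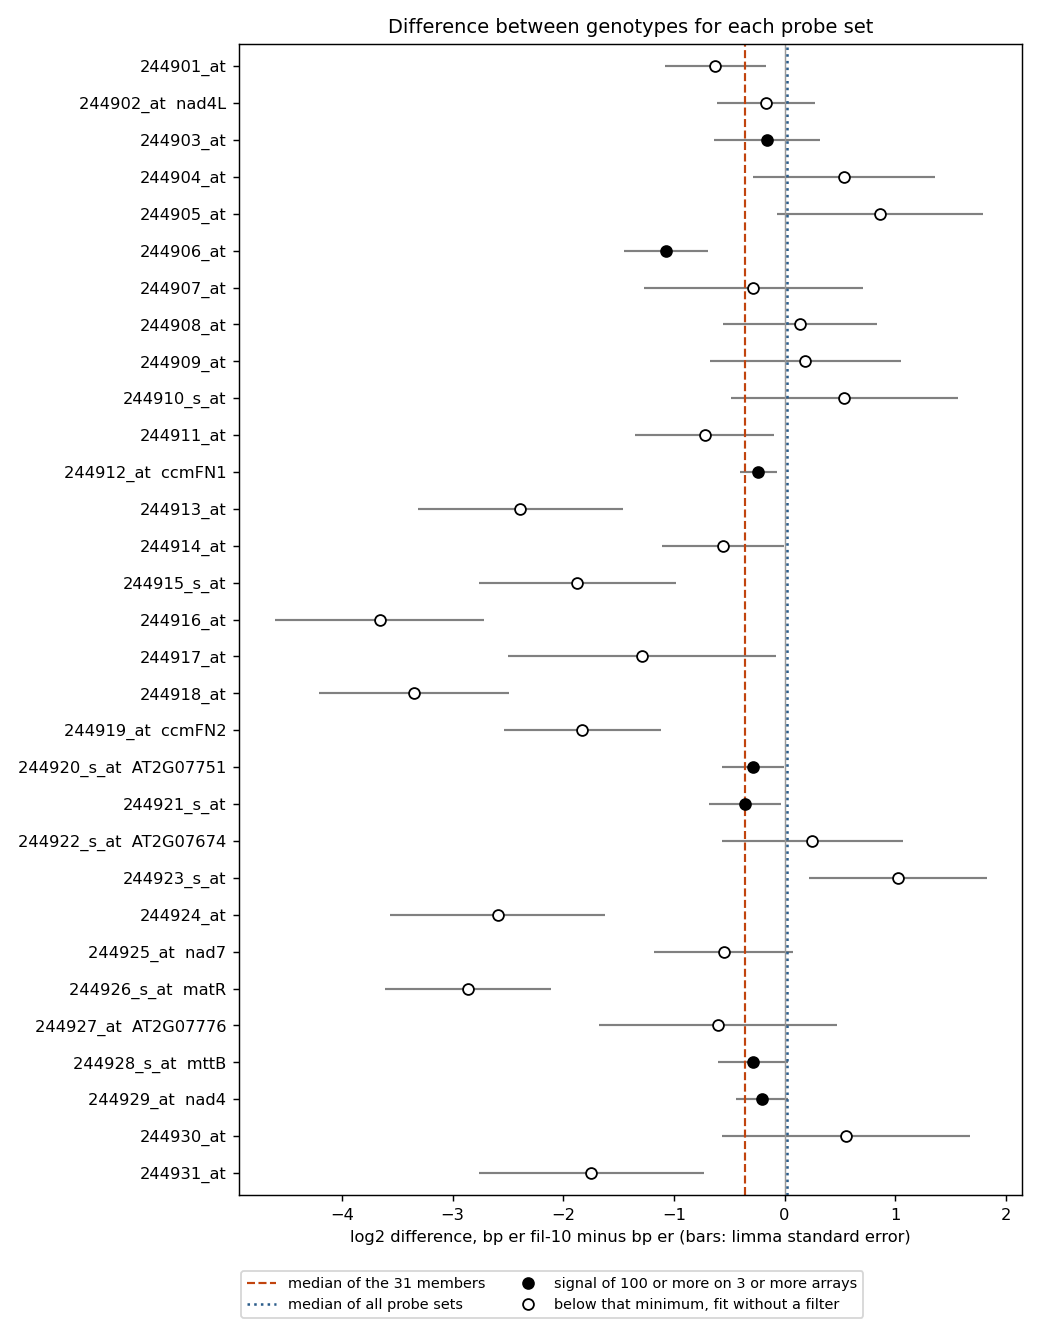
The log2 difference, *bp er fil-10* minus *bp er*, of each of the 31 probe sets, with limma's standard error as the bar. Filled points are the 7 that met the signal minimum, open points the 24 below it, taken from the fit without a filter, and lines mark the median of the 31 members (−0.35) and of all 22746 probe sets (0.02). The standard errors are wider for most open points than for the filled ones.

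Counted over arrays, 8 of the 31 members (25.8%) had every *bp er fil-10* signal below every *bp er* signal and 0 had the opposite, against 9.12% and 10.7% of all 22746 probe sets. The 8 were *ccmFN2*, *matR* and the unnamed 244901, 244906, 244913, 244914, 244916 and 244918. Of these, 7 were below the minimum, out of 24 such members (29.2%), against 9.10% of the 8290 probe sets below the minimum in the whole table. The shares with *bp er fil-10* above were 0% of the 24 and 4.54% of the 8290. The count of members with no overlap below was between 8 and 12 when 1 array was left out, and was highest without *bp er fil-10* replicate 2. The count above was 3 without *bp er fil-10* replicate 1, 1 without *bp er* replicate 1 and 0 without any other array. With the choice of array, the shares over all probe sets moved too, to between 11.8% and 17.1% below and between 13.2% and 18.6% above. Without *bp er fil-10* replicate 1, 9.68% of the members and 15.9% of all probe sets were above.

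Over all 31 members, 23 had a negative log2 difference, with a median of −0.35, beside 48.3% negative and a median of 0.02 over all 22746. The 24 members below the minimum had 16 negative differences and a median of −0.58. The 8290 probe sets below the minimum in the whole table had a median of −0.15, with 56.5% negative. The median over the 31 was −0.22 without *bp er fil-10* replicate 1 and −0.59 without *bp er fil-10* replicate 3, and it was 0 when signals under 100 were raised to 100. That 0 was fixed in advance, since 20 of the 31 members reached 100 on no array. Among the 7 genes assigned to the mitochondrial genome all differences were negative, and among the 3 chromosome 2 loci 2 were. The 8 members with the _s_at suffix had a median of −0.29 and the 23 without it −0.56. All 9 members numbered 244911 to 244919, a stretch that includes *ccmFN1* and *ccmFN2* and was picked out after the values were seen, had negative differences.

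The arrays themselves differed in the level of the block. The median signal over the 31 members was 8.6, 32 and 33.4 in *bp er fil-10*, against 38.6, 41.8 and 52.6 on the *bp er* arrays. *bp er fil-10* replicate 1 was lowest, with 22 of 31 members under a signal of 32, against 15 on each of the other *bp er fil-10* arrays and 13 or 14 on the *bp er* arrays. That array was also lowest among *bp er fil-10* arrays over all probe sets below the minimum, with a median signal of 12.4, against 23.8 and 15.2 on the other 2 *bp er fil-10* arrays and 15.7, 23.2 and 11.7 on the *bp er* arrays. The number of members at or above 100 was 6, 7 and 7 in *bp er fil-10*, against 8, 8 and 9 on the *bp er* arrays. Over all 22746 probe sets the number was 14021, 14352 and 14218 in *bp er fil-10*, against 14247, 14517 and 13834 in *bp er*. The summed signal of the 31 was 3609, 4134 and 4049 in *bp er fil-10*, against 5553, 4880 and 4678 in *bp er*, without overlap, and *ccmFN1* made up the largest part of it on each array. Summed over all 22746 probe sets, the signal was 15133309, 14811454 and 15163760 in *bp er fil-10*, against 15865088, 15551563 and 16029375 in *bp er*. That sum did not overlap either, so the lack of overlap is not particular to the block.

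The other probe sets annotated to mitochondrial genes lie outside the number range, and there were 16 of them, for *nad1*, *nad2*, *nad5*, *nad6*, *nad9*, *cox1*, *cox2*, *ccmB* and *ccmFC*. Of these, 6 (37.5%) met the minimum, against 22.6% in the block. All 6 had negative differences, with a median of −0.42 and 0 called. The median was −0.68 without *bp er* replicate 3 and −0.29 without *bp er* replicate 1. Only 4 of the 6 were negative without *bp er* replicate 2, and 5 without *bp er fil-10* replicate 3. The gene *ccmFC* (244951_s_at), which encodes the third piece of the split haem lyase subunit beside *ccmFN1* and *ccmFN2*, had signals of 281, 255 and 317 in *bp er fil-10*, against 430, 516 and 524 in *bp er*. The groups did not overlap, and the difference was −0.78 (SE 0.17, limma adjusted p = 0.124), with an adjusted p of 0.0488 in the limma fit with the replicate block and of 0.0816 when that fit took in all 22746 probe sets. It was called lower in the fit of the 14456 probe sets with the replicate block, and not in the fit without it. The basis for calls made only with that block is narrow. No other mitochondrial gene was called lower in either fit. The _s_at suffix of this probe set marks oligonucleotides that match several transcripts, so its signal cannot be assigned to *ccmFC* alone.

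Chloroplast genes are the other organelle transcripts on the array. Of their 69 probe sets, 66 (95.7%) met the minimum, and 62 of the 66 had a negative difference, with a median of −0.35 beside −0.28 for the 7 members of the mitochondrial block in the same fit. None of the 66 was called by limma without a block, and at an unadjusted p under 0.05 the counts were 24 lower and 0 higher (36.4% and 0%), against 7.06% and 9.78% of all probe sets tested. The counts were 15 lower and 1 higher without *bp er* replicate 1, and also after quantile normalization, which left 51 of the 66 negative with a median of −0.21. The shares over all probe sets tested were 4.81% lower and 7.46% higher without that array. After quantile normalization they were 7.37% and 7.98%. With the replicate block 6 were called lower and 0 higher, against 0 of 7 mitochondrial members and 2.13% lower and 1.6% higher over all probe sets tested. Between genotypes, 28 of 69 (40.6%) did not overlap with *bp er fil-10* below and 1 (1.45%) with it above, against 9.12% and 10.7% of all 22746 probe sets. The difference between the mitochondrial and chloroplast shifts was not tested.

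**Figure D3:**
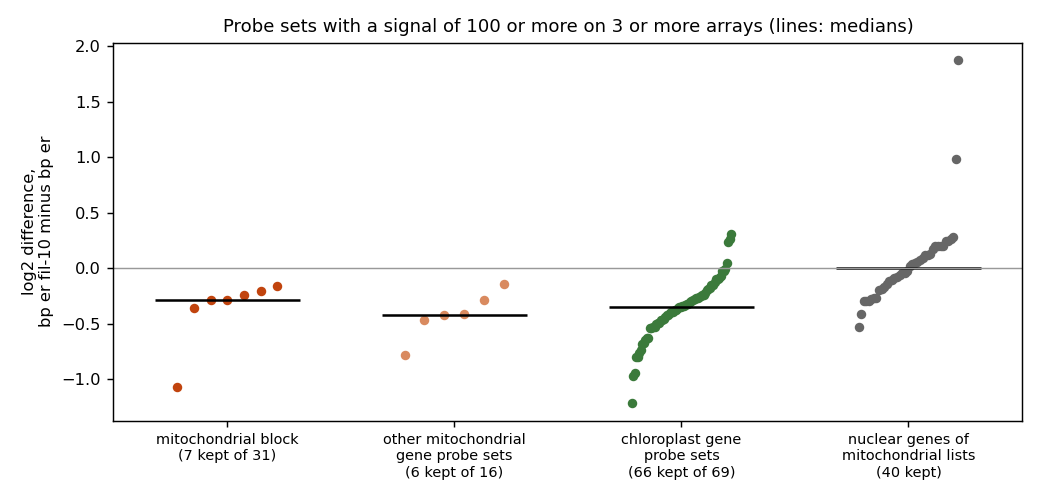
The log2 difference, *bp er fil-10* minus *bp er*, of each probe set that met the signal minimum, for the mitochondrial block (7), the other mitochondrial gene probe sets (6), chloroplast gene probe sets (66) and nuclear genes of mitochondrial function (40). Each point is a probe set, sorted within its column, and horizontal lines are medians, at −0.28, −0.42, −0.35 and 0.00.

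Of 2 rRNA control probe sets, 1 separated the genotypes, in the direction opposite to the block. The 25S rRNA control, which reports a transcript without a poly(A) tail, had signals of 13269, 9037 and 7627 in *bp er fil-10*, against 4082, 5036 and 4140 in *bp er*. The groups did not overlap, and the array with the strongest rRNA signal was *bp er fil-10* replicate 1, the array with the lowest mitochondrial median. The 5S rRNA control, also for a transcript without such a tail, had 36.4, 303 and 22.9 in *bp er fil-10*, against 79.2, 73.1 and 402 in *bp er*, and the genotypes overlapped. The signal near the 3′ end over that near the 5′ end, a sign of RNA integrity, overlapped between genotypes for all 3 controls. For *GAPDH* it was 2.70, 1.78 and 2.20 in *bp er fil-10* and 1.82, 2.25 and 1.80 in *bp er*. For actin it ran between 2.26 and 2.92 in *bp er fil-10* and between 2.46 and 3.32 in *bp er*, and for ubiquitin between 1.59 and 1.86 in *bp er fil-10* and between 1.21 and 2.16 in *bp er*. The levels of these controls differed too. Control probe set r2-At-Actin-3 was lower on every *bp er fil-10* array, with a ratio of means, *bp er fil-10* over *bp er*, of 0.801. For r2-At-Actin-M, also without overlap, it was 0.796. In the other probe sets named for *GAPDH*, actin or ubiquitin the genotypes overlapped, with ratios between 0.746 and 1.02. A control of low signal, r2-At-U12639, had 3.4, 5.4 and 3.7 in *bp er fil-10*, against 29.5, 19.9 and 38.0 in *bp er*, without overlap. The part of the 25S rRNA signal or of these control levels in the mitochondrial differences was not tested.

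**Figure D4:**
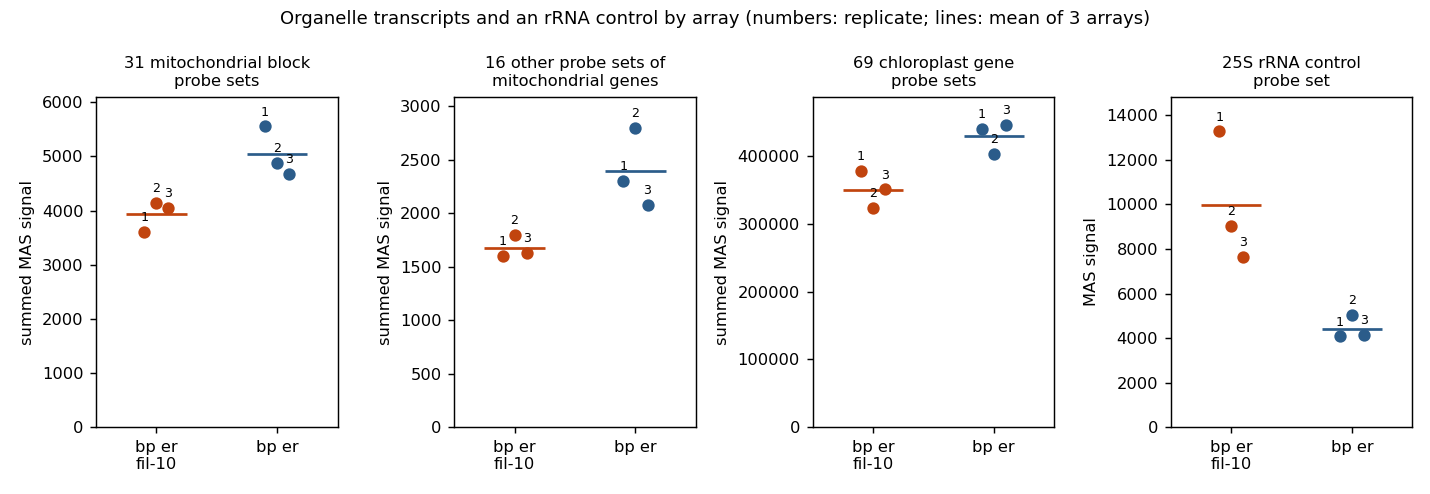
Summed MAS signal of the 31 mitochondrial block probe sets, of the 16 other mitochondrial gene probe sets and of the 69 chloroplast gene probe sets, and the signal of the 25S rRNA control, on each array. Points are arrays labelled by replicate and lines are means of 3 arrays. The 3 *bp er fil-10* arrays lie below the 3 *bp er* arrays in the organelle panels and above them in the rRNA panel. The signal summed over all 22746 probe sets, not drawn, was also lower on each *bp er fil-10* array than on any *bp er* array.

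Most proteins that work beside the mitochondrial gene products are encoded in the nucleus. Of 116 such genes listed by locus, 45 had a named probe set, and 40 probe sets met the minimum. They were split evenly, 20 lower and 20 higher by sign, with a median difference of 0.00. None was called by limma with or without the replicate block, and 0 had an unadjusted p under 0.05 in the fit without it. For complex I, the partners of *nad4*, *nad4L* and *nad7*, the 10 probe sets had a median of 0.05. The gene AT5G11770, for a core subunit, had signals of 4562, 4413 and 4341 in *bp er fil-10*, against 3629, 3374 and 3954 in *bp er*, a difference of 0.28 (SE 0.13, limma adjusted p = 0.300). The 3 complex II probe sets had a median of −0.26, with *SDH2-1*, the iron-sulphur subunit, at −0.41 (SE 0.18, limma adjusted p = 0.301). The medians were 0.08 over 9 probe sets for complex III and cytochrome c, −0.01 over 8 for complex IV, 0.01 over 2 for complex V and −0.29 over 4 for alternative respiration.

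The nuclear gene closest in role to *ccmFN1* and *ccmFN2* is *CCMH*, which acts in cytochrome c maturation. Its signal was 126, 206 and 54.5 in *bp er fil-10*, against 148, 170 and 103 in *bp er*, a difference of −0.30 (SE 0.50, limma adjusted p = 0.791). For transcription and RNA processing, only 7 of 36 listed genes had a named probe set, and 3 of these met the minimum. AT5G15700, an organelle RNA polymerase of the phage type, had signals of 95.4, 164 and 123 in *bp er fil-10*, against 117, 23.6 and 14.1 in *bp er*, a difference of 1.87 (SE 0.84, limma adjusted p = 0.306) in which *bp er* replicate 1 lay among the *bp er fil-10* arrays. AT5G14580, a polynucleotide phosphorylase that degrades mitochondrial RNA, had 154, 161 and 209 in *bp er fil-10*, against 140, 115 and 41.4 in *bp er*, a difference of 0.98 (SE 0.48, limma adjusted p = 0.334). The third, AT5G46920, a splicing factor for mitochondrial introns, differed by 0.09 (SE 0.16). Markers of the tapetum, a tissue of the anther rich in mitochondria, were represented by 2 of 15 listed genes, AT5G07230 at 0.47 (SE 0.15, limma adjusted p = 0.197) and *AMS* at −0.04 (SE 0.30). No listed marker of green tissue had a named probe set.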

How the data were processed

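RNA from inflorescences of *bp er fil-10* and *bp er*, 3 samples each, was hybridized to Affymetrix ATH1 arrays after cDNA synthesis and biotin labelling in 2 cycles. The authors used GCOS to obtain a MAS signal intensity for every probe set, with 1 linear factor per array that set the target to 500. The software version is not given in the sources used here. The deposited intensity is linear and came without detection calls, so a signal of 100 served as the minimum. After trimming 2% at each end, the mean signal of each array was 500.0. The number of arrays limits the precision.

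Signals were converted to log2 after 1 signal of 0 had been raised to 0.1. Probe sets with a signal of 100 or more on 3 or more arrays were tested (14456 of 22746, with 64 controls left out). Genotypes were compared with limma 3.58.1 in R 4.3.3 (lmFit, then eBayes with an intensity trend), 2-sided, with Benjamini-Hochberg adjustment over all probe sets tested and calls at an adjusted p under 0.05. Members below the minimum took their difference from the same fit over all 22746 probe sets. The fit was tested on simulated data. Intervals are 95% intervals from the moderated standard error of limma. The p-values measure the spread between samples labelled biological replicates.

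Arrays of both genotypes were numbered 1 to 3. Over the tested probe sets, the correlation between arrays of the same number, after the genotype mean was subtracted, was 0.103, 0.221 and 0.380. Each exceeds 0.1, the minimum set for considering the arrays as pairs, although over all probe sets the values were 0.0122, 0.0805 and 0.132. Arrays of different number also reached 0.225 (*bp er fil-10* 1 with *bp er* 2) and 0.183 (*bp er fil-10* 2 with *bp er* 1), above the 0.103 of the first pair, so the basis for pairing, and for calls made only with the block, is narrow. The main fit therefore ignored the pairing, and the replicate number as a block was an alternative fit. The choice matters for the whole table, with 2.13% called lower and 1.6% higher with the block, against 0.00692% and 0% without it.

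Names came from the array annotation and the TAIR10.1 gene table, and no coordinates were used because the build of the annotation is not stated. Values on every array are given for the 6 members with the lowest p, the 5 with the highest mean signal and any member called, and up to 4 genes with the lowest p were considered from each gene list. Values for other members were chosen after they had been seen. The members and the lists were chosen with earlier results of these data known. Alternatives were the replicate block, no filter, a filter on the mean, raising signals to 32 or 100, quantile normalization, median centring, no intensity trend, signal minimums of 50 and 200, and leaving out each array.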

Additional observations from a re-analysis of the deposited data

How the results depend on the processing

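No member was called in either direction under any alternative run, including each array left out in turn, which gave 0 lower and 0 higher throughout. With the replicate block as the pairing, the median over the 31 members was −0.35, and the lowest adjusted p among the 31 members in that fit without a filter was 0.0959 (244918_at). The number of members detected depended on the signal required, with 11 of 31 at a signal of at least 50 and 4 at 200, against 7 at 100. Without leaving out an array, 3 members reversed the sign of their log2 difference, each uncalled. These were 244907_at after quantile normalization (0.25), and 244910_s_at (−0.11) and 244922_s_at (−0.085) when signals under 32 were raised to 32. Differences that became 0 when signals were raised to 32 or 100 were left out of this count. The median was −0.29 after quantile normalization, −0.41 after median centring, −0.18 with signals under 32 raised to 32 and 0 with signals under 100 raised to 100, and between −0.59 and −0.22 with 1 array left out. The median of 0 was fixed in advance, since 20 of the 31 members reached 100 on no array. Leaving out 1 array reversed 12 members. Their differences then ranged between −0.33 and 0.036 for 244902_at (*nad4L*), −0.80 and 0.20 for 244903_at, −0.12 and 0.91 for 244904_at, −1.03 and 0.57 for 244907_at (also reversed at 0.11), −0.13 and 0.52 for 244908_at, −0.43 and 0.82 for 244909_at (also reversed at −0.14), −0.51 and 0.033 for 244920_s_at, −0.38 and 0.96 for 244922_s_at, −1.35 and 0.44 for 244927_at (also reversed at 0.069), −0.46 and 0.020 for 244928_s_at (*mttB*), −0.38 and 0.0079 for 244929_at (*nad4*), and −0.34 and 1.51 for 244930_at (also reversed at −0.10). The difference of 244903_at was also reversed at 0.12, without *bp er* replicate 1. The cause of these reversals was not tested. Signals under 100, on most arrays for 24 of the 31 members, limit what could be measured.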
